A study of Mus musculus with 28 samples.

Results

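RNA of genes that define the T cell lineage was followed in libraries made from mouse macrophages. The 32 genes were taken from a fixed list of T lineage genes, all 32 were found among the 55487 gene IDs of each library, and all 32 had a value above 0 in all 28 libraries. The list was set by gene identity, but it and the other gene lists below were chosen with earlier results of these data known. The macrophages were wild-type bone marrow derived macrophages, which are grown in culture from bone marrow cells. The 7 groups held 4 libraries each. Macrophages kept for 48 h in a non-polarizing condition were labelled M0, and their labels name neither T cells nor uptake. The series' text lists a non-polarizing condition among the co-cultures, so whether T cells were present in the M0 cultures is not settled by the labels. The other 6 groups were kept for 48 h with 50 ng/mL of IFN-γ or 50 ng/mL of IL-10 and sorted by uptake of apoptotic T cells: regulatory ones (Treg-phagocytic), conventional CD4 ones (Tconv-phagocytic) or none (non-phagocytic). The T cells had been killed with ATP/NAD+ and stained with a fluorescent antibody against CD4. The dye and number of its title give each phagocytic library its name (BV421-1, Ax647-2). The dye in the library name differs from that in the title for all 8 Treg-phagocytic libraries. Nothing in the labels says that the 4 libraries of a group came from separate cultures or animals, so p-values measure the spread between these libraries, which may be technical.

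T cells recognize antigen with the T cell receptor (TCR), a pair of variable chains held at the surface by the CD3 and zeta chains, which carry the signal into the cell. The kinase LCK, held by the coreceptor CD4, phosphorylates these chains, ZAP-70 binds them, and the adaptor LAT passes the signal on. T cell identity is kept by transcription factors such as TCF-1 (Tcf7), LEF-1 (Lef1) and BCL11B. Macrophages clear dying cells by efferocytosis, in which the engulfed cell is digested together with its RNA. A T cell transcript in a macrophage library can be RNA of the macrophage, of engulfed T cells, of T cells attached to it or sorted with it, or of free RNA, and a level in such a library does not tell these apart.

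Levels are TPM, a share of all transcripts that is corrected for gene length. Besides Il7r and Cd28, the gene with the highest mean level in each of the 7 groups was Trbc2, a constant region of the TCR beta chain (chr6:41546730-41548352, plus strand, GRCm38). Trbc1 is the other such region (chr6:41538218-41539881, plus strand). Their first exons (chr6:41546730-41547104 and chr6:41538218-41538592) are 375 bases long and identical at 374 positions. The stretch around the single difference is printed to show how alike the genes are. It covers positions 200 to 320 counted from the 5′ end of the exon, and the capital marks the difference, C260A from Trbc1 to Trbc2.
Trbc1: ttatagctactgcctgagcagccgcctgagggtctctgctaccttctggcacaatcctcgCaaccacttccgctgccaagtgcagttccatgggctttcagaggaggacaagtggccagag
Trbc2: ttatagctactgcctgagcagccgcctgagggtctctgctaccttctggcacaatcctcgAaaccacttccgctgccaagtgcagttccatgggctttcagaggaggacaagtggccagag
Of all stretches of 50 bases in the transcripts of Trbc1, 40.5% also occur in transcripts of other genes, mostly Trbc2, and 44% of those of Trbc2 do, mostly in Trbc1. The split of reads between these genes is therefore uncertain. The ratio of Trbc2 to Trbc1 was 1.78 to 1.9 as a mean in each of the 7 groups. Single libraries ran from 1.11 to 2.58, both ends in M0. For Ptprcap the share is 24.5%, mostly with Coro1b, which overlaps it on the same strand, so its level carries the same doubt. For Ms4a4b it is 2.4%, mostly with Ms4a4c.

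The genes lie on many chromosomes. Cd3g (chr9:44969572-44980431, minus strand), Cd3d (chr9:44981786-44987339, plus strand) and Cd3e (chr9:44998740-45009627, minus strand) sit side by side, and Cd3g and Cd3d point away from each other. The promoter of Lck is shown because the gene moved together with most of the list, and because the 250 bases before a RefSeq start (RefSeq, GRCm38.p6) hold a match to a motif of the RUNX transcription factors. The window is chr4:129573642-129573891 on the minus strand, and capitals mark the motif, TGTGGT.
Lck: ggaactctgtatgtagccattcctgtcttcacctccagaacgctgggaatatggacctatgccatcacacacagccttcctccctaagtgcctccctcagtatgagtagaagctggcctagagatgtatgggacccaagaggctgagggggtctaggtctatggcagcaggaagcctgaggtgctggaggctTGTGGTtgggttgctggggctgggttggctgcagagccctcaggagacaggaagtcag
A RefSeq promoter was matched for 20 of the 32 genes, 29 promoters in all. Searched on both strands, TGTGGT occurred in 4 of the 29 (13.8%; Lck, Trat1, Txk and Zap70) and in 14% of 32851 promoters of all genes. A match describes these letters in this window and nothing more.

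The libraries carried the RNA of macrophages: all 10 macrophage markers (among them Adgre1, Csf1r, Itgam and Lyz2) had a mean of at least 1 TPM in every group, and their summed level was 18036 to 21467 TPM as a group mean. TPM keeps no depth, and no total count is known. The number of genes above 0 was 14148 to 16295 under IFN-γ (12 libraries), 16942 to 18457 under IL-10 (12 libraries) and 17802 to 18392 for M0. The counting precision of a low gene can therefore not be given. Tests were made with limma on scaled TPM as log2(scaled TPM + 1) over 13631 genes, fitted on the groups compared, and a gene was called at a Benjamini-Hochberg adjusted p under 0.05. Log2 differences below are on this scale, which understates changes of low genes. Shares of all genes are given at the adjusted threshold only. Counts at an unadjusted p under 0.05 have no such share beside them and are descriptive.

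The list fell into 30 genes that moved together and the pair Il7r and Cd28, which did not; this division was made after the values were seen and is a description. The summed level of the 30 genes was 229.3, 93.6, 136.7 and 74.3 TPM in the M0 libraries 1 to 4. In non-phagocytic macrophages it was 839.3, 1026, 1406 and 881.8 TPM under IFN-γ and 161.6, 142.9, 139.4 and 162.9 TPM under IL-10. Every non-phagocytic IFN-γ library lay above every M0 and IL-10 library. Tconv-phagocytic libraries reached 1160, 1019, 1256 and 1272 TPM under IFN-γ and 193.4, 263.1, 229.6 and 221.9 TPM under IL-10 (order BV421-1, BV421-2, Ax647-1, Ax647-2). Treg-phagocytic libraries reached 1564, 1079, 1299 and 968.8 TPM under IFN-γ and 297.3, 353, 343.8 and 350.6 TPM under IL-10 (order Ax647-1, Ax647-2, BV421-1, BV421-2). Under IL-10 the groups did not overlap and followed the order non-phagocytic, Tconv-phagocytic, Treg-phagocytic, whereas under IFN-γ all 3 groups overlapped. The highest group mean, that of IFN-γ Treg-phagocytic libraries at 1228 ± 263 TPM (SD, n = 4), was 0.1228% of all TPM.

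**Figure D1:**
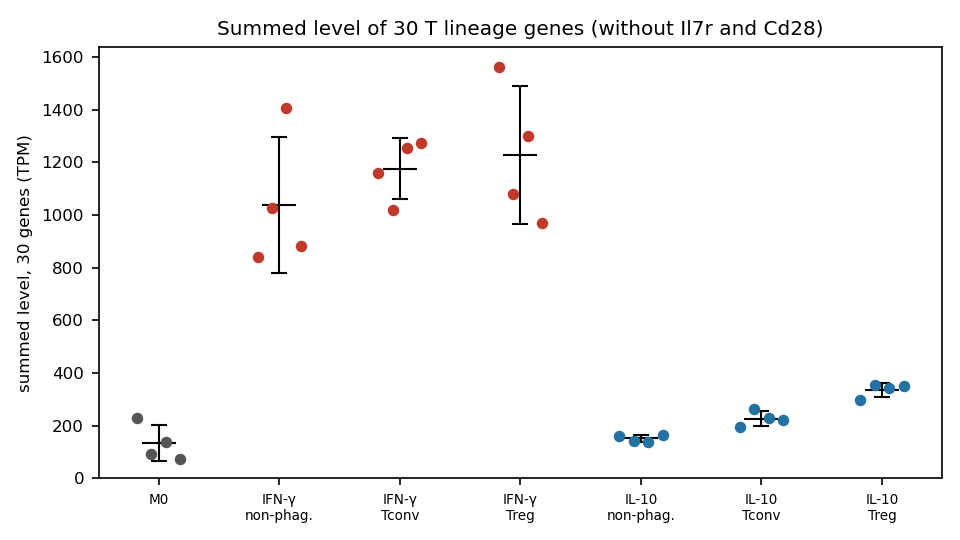
Summed level in TPM (vertical axis) of the 30 T lineage genes without Il7r and Cd28 in each of 28 libraries (points), by group (horizontal axis), with the group mean and SD (bar and whiskers, n = 4). IFN-γ libraries lie between 839.3 and 1564 TPM, and the IL-10 libraries between 139.4 and 353 TPM rise from non-phagocytic to Treg-phagocytic without overlap.

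The 30 genes took unequal shares of their summed level. Trbc2 was 12.4% to 16% of their summed level as a group mean, Trbc1 6.96% to 9.05%, Ltb 7.78% to 8.90%, Trac 4.91% to 6.21% and Lck 4.69% to 6.76%. Ets1 was 6.30% ± 1.94 in M0, 4.64% ± 0.77 in non-phagocytic IL-10 (SD, n = 4), and its group means under IFN-γ ran from 2.33% ± 0.11 to 2.66% ± 0.27 (SD, n = 4). Cd27, a costimulatory receptor, ran from 3.76% ± 0.61 in non-phagocytic IL-10 to 1.81% ± 0.12 in IFN-γ Treg-phagocytic libraries (SD, n = 4). Cd4, the coreceptor and the target of the staining antibody, ran from 2.64% ± 0.70 (SD, n = 4) in non-phagocytic IFN-γ to 4.28% ± 0.35 (SD, n = 4) in M0 libraries. Its share under IL-10 was 3.19% ± 0.40 in non-phagocytic and 4.22% ± 0.12 in Tconv-phagocytic libraries (SD, n = 4). The adaptors Themis and Trat1, the kinase Txk and the transcription factors Gata3 and Lef1 each had a group mean under 1 TPM in M0 and in non-phagocytic IL-10 libraries.

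**Figure D2:**
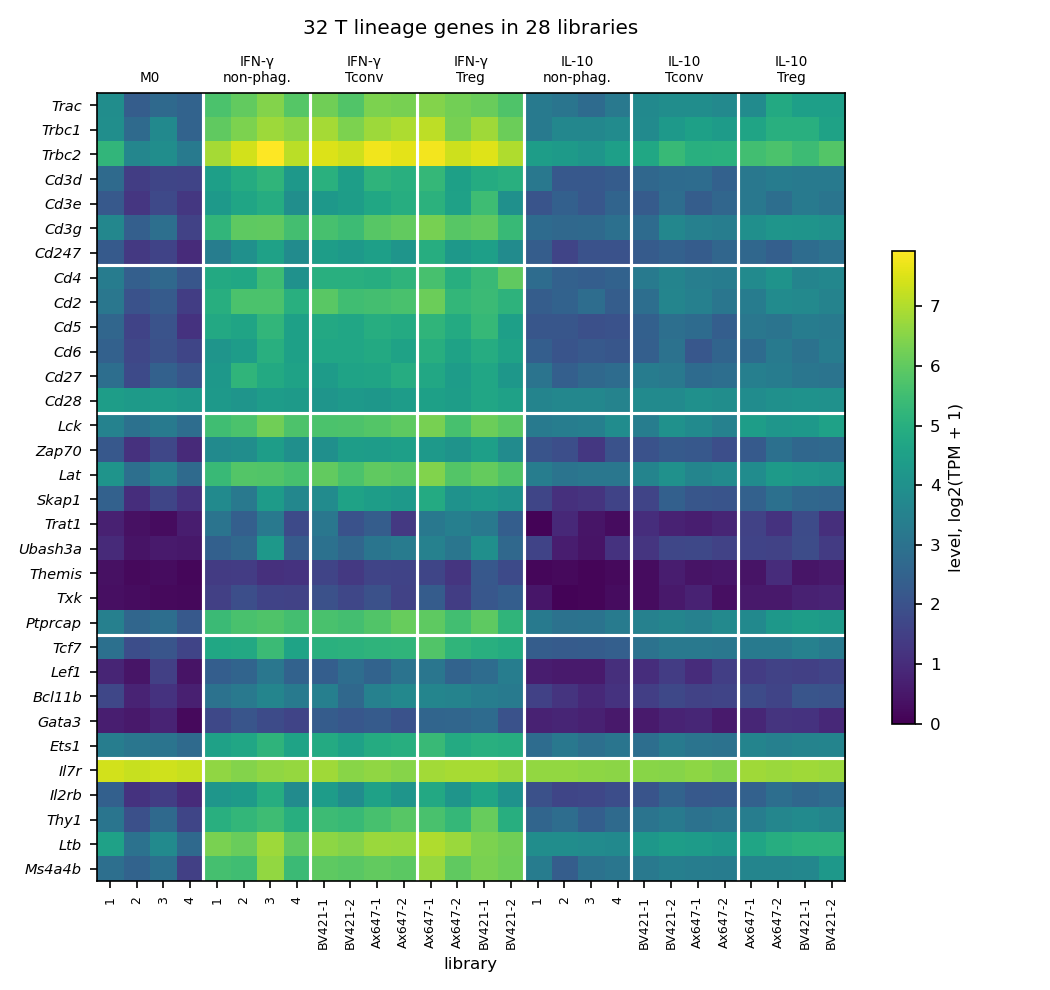
Level as log2(TPM + 1) (colour) of the 32 genes (rows, ordered by role, with white lines between roles) in each of 28 libraries (columns, by group). Most rows are bright in the 12 IFN-γ columns and dark in the M0 and IL-10 columns. Il7r and Cd28 vary less, with group means of 90.8 to 159 TPM and 11.3 to 22.4 TPM.

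Single libraries stood apart for most of the list at once. M0 library 1 was the highest of its group for 29 of the 32 genes, against 35.4% of all genes tested. Library 4 was the lowest for 24, against 27.2% of all genes. Among non-phagocytic IFN-γ libraries, library 3 was the highest for 25 genes (28.1% of all genes). Ax647-1 was the highest of the IFN-γ Treg-phagocytic libraries for 19 genes (29.3% of all) and BV421-2 the lowest for 22 (27.6%). Under IL-10 the lowest Tconv-phagocytic library was BV421-1 for 20 genes (26.6% of all). The lowest IL-10 Treg-phagocytic library was Ax647-1 for 19 genes (32.2% of all). The highest summed level was 3.09 times the lowest within M0, 1.25 to 1.68 times in the IFN-γ groups and 1.17 to 1.36 times in the IL-10 groups.

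IFN-γ and IL-10 were first compared without uptake, which asks what T cell RNA the sorted non-phagocytic macrophages carried under each cytokine. All 32 genes were higher under IFN-γ, with a median log2 difference of 2.54 against 0.00 over all genes tested. Of all genes 26.2% were called higher and 24.8% lower. Gata3, Themis and Txk passed the filter on low values only through the IFN-γ libraries, where they were high. Their calls add no separate support, although they held without the filter. The ratio of the mean summed levels of the 30 genes was 6.84. Because these are bulk libraries, fewer T cells and less T cell RNA per cell cannot be told apart. Gene counts above 0 and the summed level of other lists given below moved with the same contrast, and their part in the result was not tested.

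Of the TCR and CD3 chains all 7 rose. Trac, the TCR alpha constant region, was at 50.4, 63.8, 88.0 and 55.9 TPM under IFN-γ and 8.43, 7.45, 5.78 and 8.23 TPM under IL-10, a log2 difference of 3.22 (SE 0.17, adjusted p 7.17e-07, limma). Trbc2 was at 117, 166, 244 and 137 TPM against 20.5, 19.1, 16.7 and 21.5 TPM (log2 3.28, SE 0.20, limma adjusted p 1.46e-06), the largest difference of the list on this log2 scale. All 4 IFN-γ libraries lay above all 4 IL-10 libraries for both genes. Cd3e, a CD3 signalling chain, was at 18.6, 24.6, 29.2 and 14.2 TPM against 3.19, 4.38, 3.43 and 4.89 TPM. Cd3g (log2 3.19, SE 0.17) and Trbc1 (log2 3.11, SE 0.18) had limma adjusted p of 5.96e-07 and 1.03e-06.

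The coreceptor, adhesion and costimulation genes rose in 6 of 6, by a median of 2.53. Cd4 was at 27.4, 25.7, 43.5 and 15.0 TPM under IFN-γ and 6.05, 4.52, 4.21 and 4.59 TPM under IL-10, with no overlap. Cd5, an inhibitory receptor tied to the TCR, rose by 3.02 (SE 0.15, limma adjusted p 5.46e-07), and Cd2, an adhesion receptor, by 3.10 (SE 0.20, limma adjusted p 2.39e-06). Cd28, the costimulatory receptor, differed by 0.94, the smallest of this role.

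The 9 signalling genes all rose. Lck was at 44.7, 50.2, 73.6 and 51.5 TPM under IFN-γ and 8.65, 9.26, 9.76 and 13.4 TPM under IL-10 (log2 2.60, SE 0.17, limma adjusted p 2.56e-06). Ptprcap, a protein bound to the phosphatase CD45, had the lowest adjusted p: 41.6, 49.0, 52.4 and 46.7 TPM against 8.46, 6.87, 7.21 and 8.93 TPM (log2 2.74, SE 0.10, limma adjusted p 9.66e-08). Lat rose by 2.76 (SE 0.11, limma adjusted p 1.51e-07). Themis, an adaptor best known from thymocytes, had the smallest log2 difference, 1.20, at means of 0.12 TPM under IL-10 and 1.41 TPM under IFN-γ. The 1 added to each level shrinks this value. As ratios of mean TPM, the rises of Themis, Trat1 and Txk exceeded that of Trbc2, though all 3 were under 1 TPM under IL-10. So did those of some genes at higher levels. Among them were Cd3g (51.7 against 5.85 TPM) and Trac (64.5 against 7.47 TPM), beside Trbc2 at 166 against 19.5 TPM.

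Transcription factors and surface or secreted products rose in 5 of 5 each. Tcf7 rose by 2.83 (SE 0.16, limma adjusted p 1.19e-06), and the smallest log2 difference among the factors was 1.28 for Gata3, a low gene. Thy1, a surface glycoprotein of mouse T cells, rose by 2.82 (SE 0.14, limma adjusted p 5.41e-07) and Ltb, which encodes lymphotoxin beta, by 2.76 (SE 0.15, limma adjusted p 7.20e-07). Ms4a4b, a membrane protein of T cells, was at 47.7, 44.6, 98.5 and 41.5 TPM under IFN-γ and 9.16, 4.07, 6.94 and 7.75 TPM under IL-10. Il7r, the interleukin-7 receptor, was the exception in size: 97.3, 86.9, 97.2 and 102 TPM against 98.7, 98.7, 95.4 and 93.2 TPM. These groups overlapped, its log2 difference was 0.30 after scaling, and without scaling it was -0.01 (limma adjusted p 0.897; over its alternatives 0.000159 to 0.897). Scaling moves all genes of this contrast alike: without it the median over all genes was -0.26 and that of the 32 genes 2.27.

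Against M0, non-phagocytic IFN-γ macrophages had 31 of the 32 genes higher and 1 lower, where 27.1% of all genes were called higher and 25.9% lower. Here the cytokine, the presence of T cells and the sorting cannot be told apart, since the M0 labels name neither T cells nor a sort. The median difference was 2.78. Gata3, Themis and Txk again passed the filter only through IFN-γ libraries. The 12 genes with the lowest adjusted p (limma, 3.11e-06 to 3.85e-05) were Lck, Ptprcap, Cd6, Ets1, Cd3e, Cd5, Trbc1, Tcf7, Bcl11b, Trac, Thy1 and Txk, with log2 differences from 1.52 (Txk) to 3.46 (Trbc1). Trac, for example, stood at 14.0, 4.03, 5.61 and 4.77 TPM in M0 libraries, so that M0 library 1 held more than each of the 4 non-phagocytic IL-10 libraries. In the same M0 libraries Trbc2 was at 36.4, 11.6, 13.9 and 8.36 TPM, Cd3e at 3.64, 1.38, 2.35 and 1.45 TPM and Cd4 at 9.10, 4.33, 5.46 and 3.37 TPM. Lck was at 10.6, 6.73, 8.59 and 6.10 TPM, Ptprcap at 9.87, 5.19, 6.36 and 3.63 TPM and Ms4a4b at 6.44, 4.78, 6.57 and 1.84 TPM. Each of these genes was lower in every M0 library than in every non-phagocytic IFN-γ library. The gene that fell was Il7r, from 165, 154, 162 and 155 TPM in M0 (log2 -0.44, SE 0.06, limma adjusted p 0.000215), with all 4 IFN-γ libraries below all 4 of M0. Cd28 was barely called (log2 0.21, limma adjusted p 0.049) and changed sign without scaling (-0.07, limma adjusted p 0.513). It lost its call in 8 of 15 alternatives, among them leaving out each of the M0 libraries and the IFN-γ libraries 1, 3 or 4 (0.0165 to 0.513 over all alternatives).

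Non-phagocytic IL-10 macrophages had 0 of 32 genes called higher than in M0 by limma and 2 called lower, against 13.7% and 12.8% of all genes. At an unadjusted p under 0.05 there were 3 genes. Il7r fell by 0.73 (SE 0.03, limma adjusted p 5.41e-07) and Cd28 by 0.73 (SE 0.06, limma adjusted p 2.23e-05). Cd28 was at 20.3, 19.2, 19.8 and 17.8 TPM in M0 and 10.9, 11.8, 11.8 and 10.7 TPM under IL-10, with no overlap. The median over the 32 genes was 0.21. These counts depended on M0 library 1: without it 11 genes were called, 9 of them higher under IL-10. Both comparisons with M0 share the M0 libraries.

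**Figure D3:**
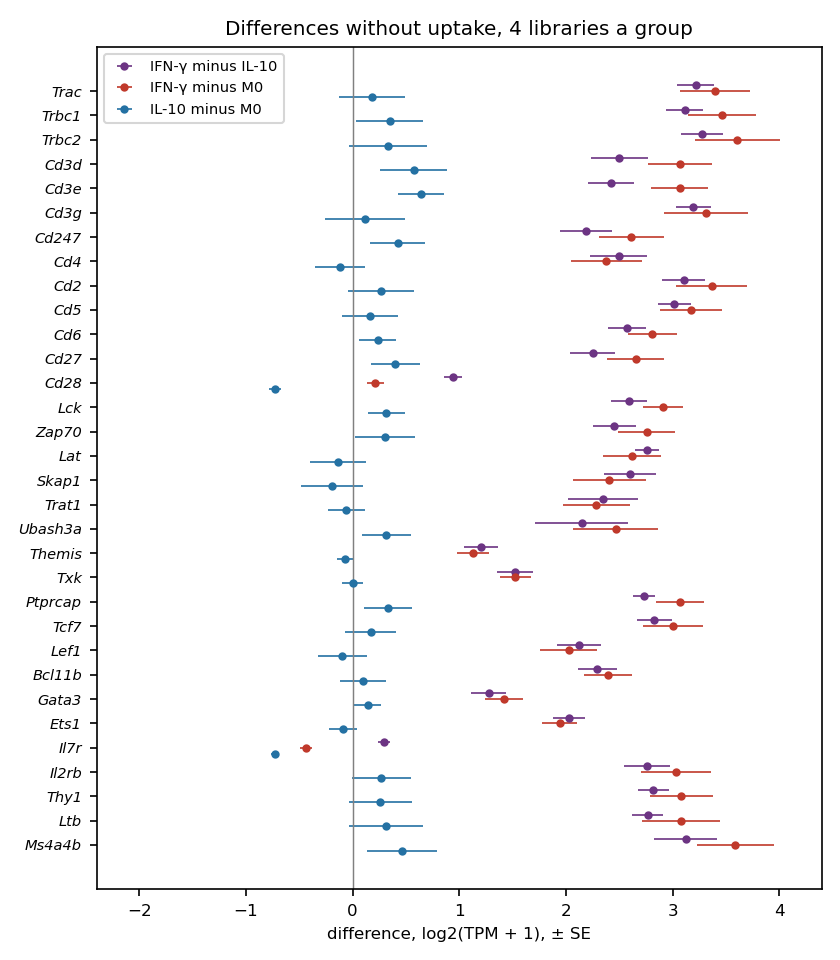
Log2 difference with its standard error (horizontal axis) of each of the 32 genes (vertical axis) between groups without uptake: IFN-γ minus IL-10, IFN-γ minus M0 and IL-10 minus M0, 4 libraries a group. Differences of the 30 genes under IFN-γ lie between 1.13 and 3.61, those between IL-10 and M0 lie between -0.19 and 0.64, and Il7r and Cd28 lie apart.

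Uptake was then compared within IL-10, which asks whether macrophages that had taken up T cells carried more T cell RNA than those that had not. In Treg-phagocytic macrophages 28 of the 32 genes were higher and 0 lower than in non-phagocytic ones, where 6.91% of all genes were called higher and 4.49% lower. The median difference was 0.94, against 0.00 over all genes, and all 32 differences were positive. The summed level of the 30 genes was 336 ± 26.2 TPM against 152 ± 12.3 TPM (SD, n = 4), a ratio of 2.22.

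All 7 TCR and CD3 chains rose. Trac was at 13.3, 27.4, 21.4 and 21.3 TPM in Treg-phagocytic libraries, each above the non-phagocytic maximum of 8.43 TPM. Trbc2 was at 45.0, 50.2, 42.4 and 55.1 TPM (log2 1.34, SE 0.10, limma adjusted p 0.000156), and Cd3g rose by the same log2 1.34 (SE 0.08, limma adjusted p 5.18e-05), the lowest adjusted p of the list. Trbc1 rose by 1.28 (SE 0.15, limma adjusted p 0.00158). Cd3e was at 8.14, 6.23, 8.39 and 7.48 TPM, all above the non-phagocytic maximum of 4.89 TPM.

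All 6 coreceptor, adhesion and costimulation genes rose as well. Cd4 was at 12.8, 15.9, 10.98 and 11.7 TPM against at most 6.05 TPM without uptake (log2 1.30, SE 0.13, limma adjusted p 0.000737). Cd5 rose by 1.22 (SE 0.09, limma adjusted p 0.000166) and Cd2 by 1.16 (SE 0.14, limma adjusted p 0.00175). Cd28 rose the least here, by 0.43, from 10.7 to 11.8 TPM up to 13.6 to 15.4 TPM.

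Of the 9 signalling genes 6 rose; Ubash3a, Themis and Txk, with group means of 0.12 to 2.04 TPM in these libraries, were not called. Lck was at 20.5, 16.8, 17.97 and 22.4 TPM against 8.65 to 13.4 TPM, and Ptprcap at 12.5, 17.6, 20.5 and 19.2 TPM against 6.87 to 8.93 TPM. Neither gene overlapped between the groups. Lat (log2 1.01, SE 0.11) and Skap1, an adaptor of integrin activation (log2 1.29, SE 0.15), had limma adjusted p of 0.000865 and 0.00163.

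Of the transcription factors 4 of 5 rose, Gata3 being the one not called (0.34, limma adjusted p 0.084). Tcf7 rose by 1.05 (SE 0.08, limma adjusted p 0.000166). All 5 surface or secreted products rose. Ltb rose by 1.18 (SE 0.09, limma adjusted p 0.000166), Thy1 by 1.03 and Il2rb, a chain of the interleukin-2 receptor, by 0.94 (limma adjusted p 0.00185 and 0.00196). Ms4a4b was at 11.1, 11.2, 11.9 and 17.6 TPM against 4.07 to 9.16 TPM. Il7r rose the least, by 0.24, from 93.2 to 98.7 TPM without uptake to 111, 106, 110 and 105 TPM.

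Of the 28 calls, 20 held under all 16 alternative settings, Trac, Trbc1, Trbc2, Cd3g, Cd4, Cd5, Lck and Ptprcap among them. The other 8 (Cd247, Zap70, Cd27, Trat1, Cd3e, Cd3d, Bcl11b and Ms4a4b) lost their call under 1 to 11 settings, with the direction kept, and the count without single libraries was 21 to 29.

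In Tconv-phagocytic IL-10 macrophages 12 of the 32 genes were higher and 0 lower than in non-phagocytic ones, with 4.23% of all genes called higher and 1.8% lower. The median difference was 0.49. The summed level of the 30 genes was 227 ± 28.6 TPM (SD, n = 4), 1.5 times that without uptake. The 12 genes by role were Trac and Trbc2, Cd4, Cd2, Cd5 and Cd28, Lat and Ptprcap, Tcf7, and Ltb, Thy1 and Il2rb. Trac was at 12.6, 14.0, 13.9 and 12.3 TPM (log2 0.82, SE 0.11, limma adjusted p 0.00379) and Cd4 at 8.50, 10.98, 9.57 and 9.17 TPM (log2 0.92, SE 0.11, limma adjusted p 0.00286), with all 4 libraries above all non-phagocytic ones. Trbc2 was at 25.7, 39.9, 31.5 and 31.99 TPM and Ptprcap at 10.1, 11.2, 10.2 and 12.2 TPM, also without overlap. Tcf7 rose by 0.87 (SE 0.07, limma adjusted p 0.000522), Ltb by 0.53 (SE 0.06, limma adjusted p 0.00274), Trbc2 by 0.77 (SE 0.13, limma adjusted p 0.0112) and Lat by 0.64 (SE 0.11, limma adjusted p 0.0117). Limma adjusted p of Ptprcap, Cd28, Cd5, Thy1, Cd2 and Il2rb were 0.0185 to 0.0388, with log2 differences of 0.32 (Cd28) to 0.82 (Cd2).

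Members that were not called after Tconv uptake included Cd3e at 3.88, 6.09, 4.05 and 5.17 TPM, Lck at 9.25, 15.3, 12.9 and 10.2 TPM and Ms4a4b at 8.19, 9.82, 9.22 and 8.99 TPM, each overlapping the non-phagocytic group. Il7r, at 92.0, 88.8, 94.8 and 87.6 TPM, differed by -0.01. Only Tcf7 and Cd4 kept their calls under all 16 alternatives. The count fell to 3 in a model of all 28 libraries and to 7 without a filter, with a replicate block or without library Ax647-2 of this group.

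The comparison of Treg- with Tconv-phagocytic macrophages asks whether T cell RNA differed with the type of engulfed cell. Under IL-10, 4 genes were higher after Treg uptake and 0 lower, where 0.47% of all genes were called higher and 0.932% lower. All 32 differences were positive, with a median of 0.47. An unadjusted p under 0.05 (limma) was seen for 23 genes, a count without the share of all genes at that threshold. Il7r was higher by 0.25 (SE 0.04, limma adjusted p 0.0141), Ltb by 0.65 (SE 0.10, limma adjusted p 0.0153), Cd3d by 0.58 (SE 0.09, limma adjusted p 0.0187) and Ets1, a transcription factor, by 0.50 (SE 0.08, limma adjusted p 0.0254). Ltb was at 24.6, 29.9, 32.4 and 33.1 TPM after Treg uptake and 17.3, 20.4, 19.3 and 17.5 TPM after Tconv uptake, with no overlap. Trac (13.3 to 27.4 against 12.3 to 14.0 TPM) and Cd4 (10.98 to 15.9 against 8.50 to 10.98 TPM) were not called; Trac overlapped between the groups and Cd4 met at 10.98 TPM. Without 1 library the count was 0 (Treg BV421-1), 1 (Treg Ax647-2 or BV421-2), or 2 (Tconv BV421-1 or Ax647-2), and no call held under all 18 alternatives.

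**Figure D4:**
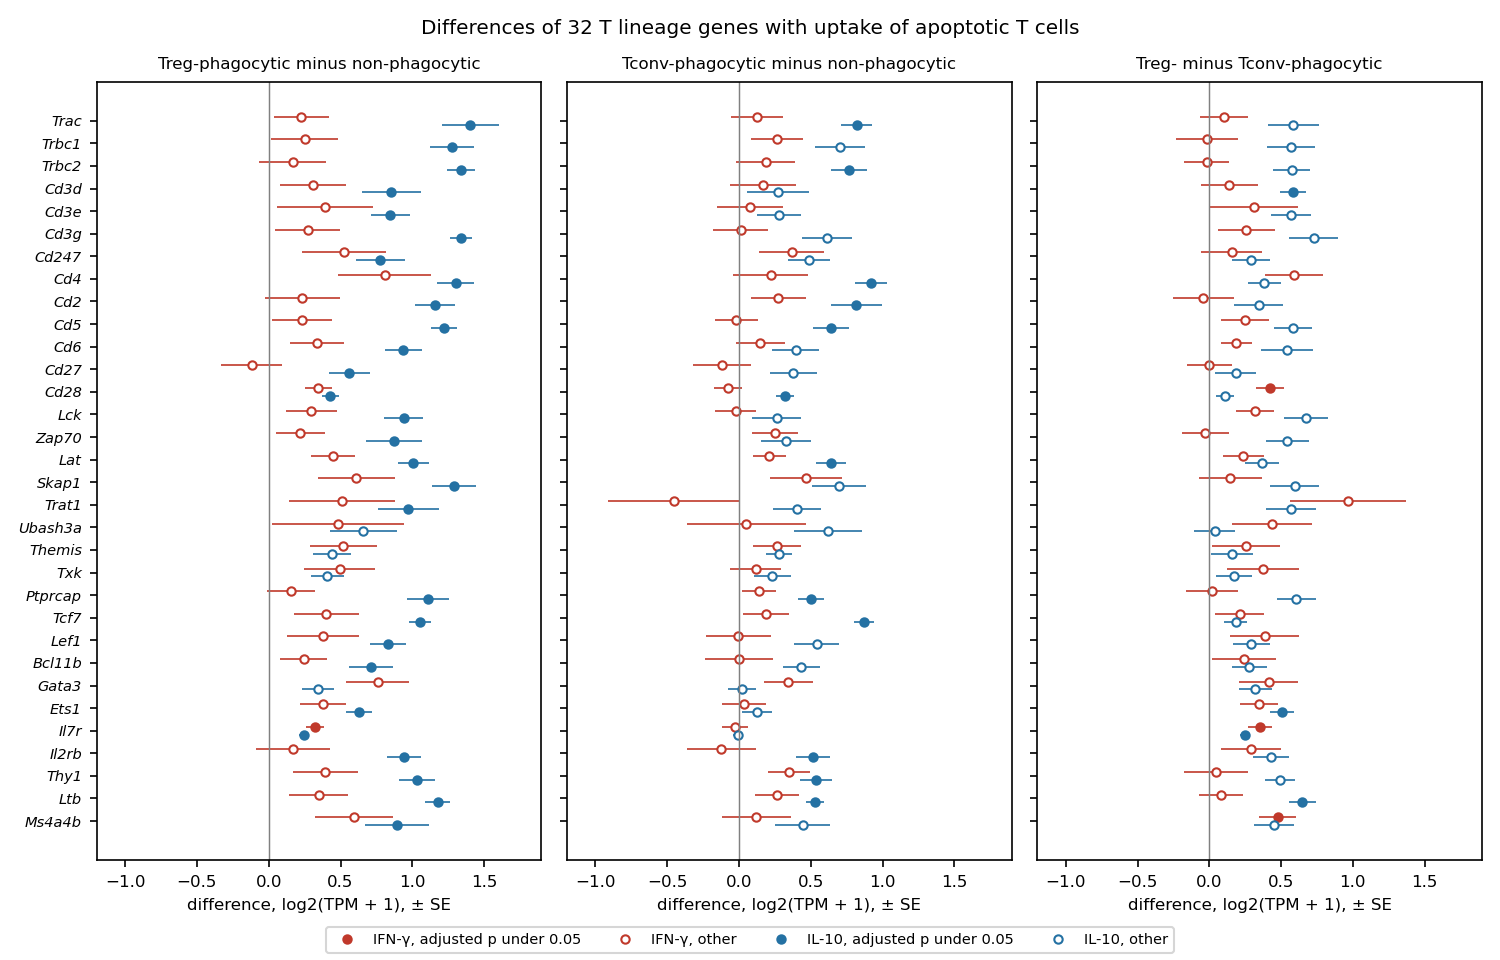
Log2 difference with its standard error (horizontal axes) of each of the 32 genes (vertical axis) with uptake of apoptotic T cells under IFN-γ (red) and IL-10 (blue); filled points have an adjusted p under 0.05. Under IL-10, 28, 12 and 4 points are filled in the panels from left to right, and under IFN-γ 1, 0 and 3.

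Under IFN-γ, 1 of the 32 genes was higher in Treg-phagocytic than in non-phagocytic macrophages and 0 were lower, with 3.02% of all genes called higher and 5.29% lower. That gene was Il7r, at 112.5, 118.5, 118.1 and 106.4 TPM against 86.9 to 102.5 TPM without uptake (log2 0.32, SE 0.06, limma adjusted p 0.0197), with no overlap. Its call was lost without scaling, with a replicate block and without Treg-phagocytic BV421-1 (0.000203 to 0.103 over all alternatives). The median of the 32 differences was 0.35 against 0.04 over all genes, 31 were positive, and 6 had an unadjusted p under 0.05. Trac was at 87.9, 75.4, 68.9 and 53.0 TPM, Cd3e at 33.5, 22.1, 43.5 and 14.7 TPM and Lck at 78.6, 48.7, 69.8 and 59.1 TPM, all overlapping the non-phagocytic group. Trbc2 was at 223, 158, 186 and 127 TPM, Ptprcap at 62.0, 45.4, 61.8 and 35.6 TPM and Ms4a4b at 105, 63.0, 79.2 and 71.9 TPM, which overlapped too. Cd4 (48.1, 30.5, 40.3 and 63.1 TPM) had the largest difference on the log2 scale, 0.81 (SE 0.32, limma adjusted p 0.182). The standard error of the same difference of Cd4 under IL-10 was 0.13. The count was 7 in a model of all 28 libraries, and 2 without IFN-γ non-phagocytic library 3 or without Treg-phagocytic BV421-2.

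In Tconv-phagocytic IFN-γ macrophages 0 of the 32 genes were called by limma in either direction, where 0% of all genes were called higher and 0.00734% lower (1 gene). At an unadjusted p under 0.05 there was 1 gene, Thy1. The differences ran from -0.46 (Trat1) to 0.46 (Skap1), with a median of 0.13. Trac was at 73.5, 54.0, 81.5 and 79.1 TPM, Cd4 at 31.1, 30.9, 29.5 and 35.0 TPM, Ptprcap at 49.7, 46.6, 54.4 and 66.7 TPM and Ms4a4b at 61.0, 58.9, 63.9 and 60.7 TPM, all within or overlapping the range without uptake. The same held for Trbc2 at 183, 161, 218 and 194 TPM, Cd3e at 17.99, 20.2, 25.5 and 29.6 TPM, Lck at 51.1, 51.8, 55.7 and 61.7 TPM and Il7r at 112, 91.5, 97.8 and 88.6 TPM.

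Treg- against Tconv-phagocytic macrophages under IFN-γ had 3 genes higher and 0 lower, with 5.41% of all genes called higher and 7.3% lower. Cd28 was at 21.9, 20.5, 25.0 and 22.1 TPM after Treg uptake and 16.4, 18.5, 17.2 and 19.8 TPM after Tconv uptake (log2 0.42, SE 0.10, limma adjusted p 0.0267). Il7r differed by 0.35 (SE 0.08, limma adjusted p 0.0287) and Ms4a4b by 0.48 (SE 0.13, limma adjusted p 0.0467). Il7r overlapped between the groups (106 to 118 against 88.6 to 112 TPM), as did Ms4a4b (63.0 to 105 against 58.9 to 63.9 TPM). The TCR and CD3 chains differed by -0.02 to 0.31, and 0 of 7 were called. No call held under all 18 alternatives: the count was 0 with no scaling, with either replicate block and without Tconv-phagocytic BV421-2 or Ax647-1 or Treg-phagocytic BV421-1 or BV421-2, and 1 without Tconv-phagocytic BV421-1 or Ax647-2.

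**Figure D5:**
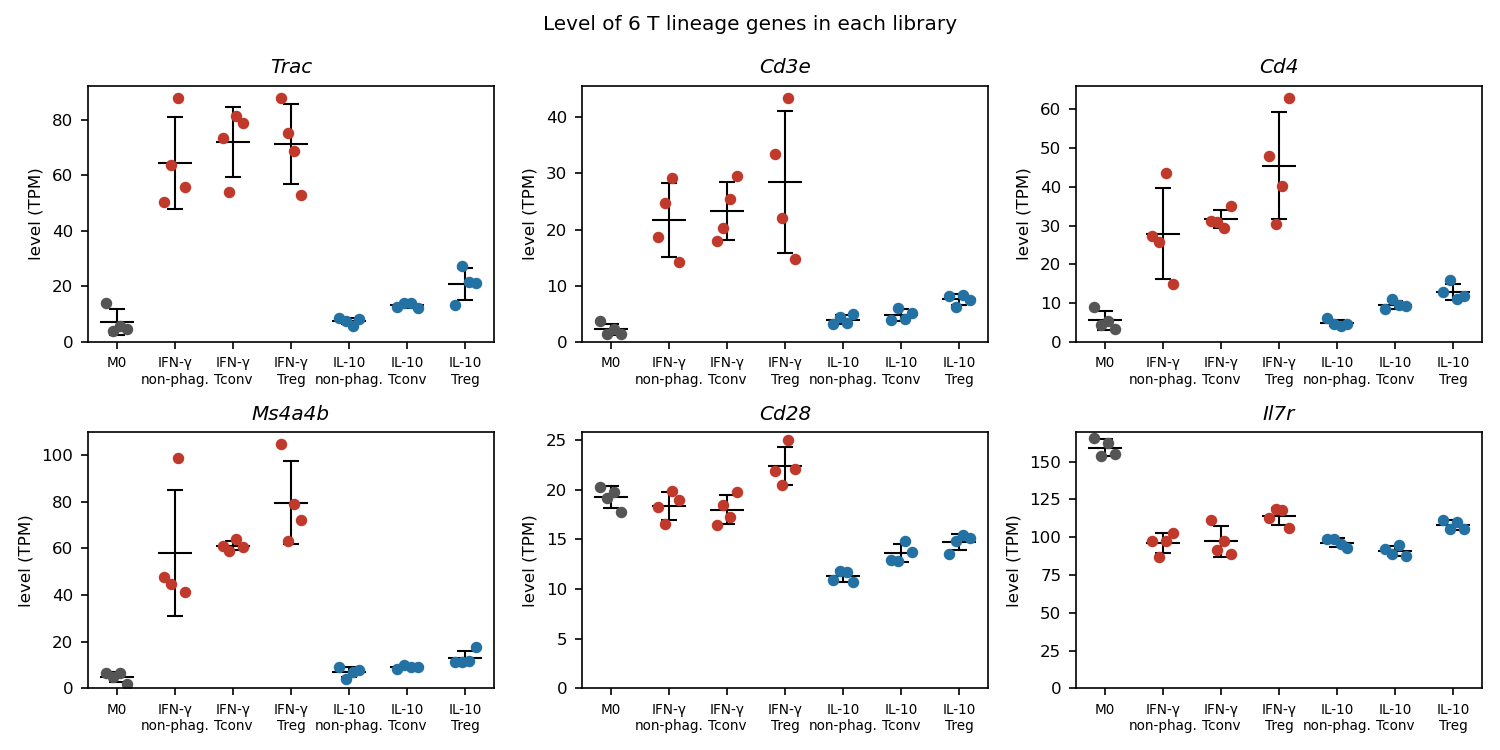
Level in TPM (vertical axes) of Trac, Cd3e, Cd4, Ms4a4b, Cd28 and Il7r in each library (points), by group (horizontal axes), with mean and SD (bars and whiskers, n = 4). Trac, Cd3e, Cd4 and Ms4a4b are high in all IFN-γ groups, whereas Il7r is highest in M0 at 154 to 165 TPM.

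Whether the differences between the sorted groups were unlike under the cytokines was tested itself. This contrast compares log2 differences and not amounts of TPM gained. For Treg-phagocytic against non-phagocytic macrophages it was called for 7 genes, all with a smaller log2 difference under IFN-γ, where 9.47% of all genes were called in either direction. They were Trbc2 (-1.17, SE 0.26, limma adjusted p 0.00862), Cd3g (-1.07, SE 0.25, 0.011), Cd5 (-0.99, SE 0.24, 0.0142), Ptprcap (-0.95, SE 0.23, 0.0148), Trac (-1.18, SE 0.28, 0.015), Ltb (-0.83, SE 0.23, 0.0321) and Trbc1 (-1.02, SE 0.29, 0.0335). The median over the 32 genes was -0.58 against 0.02 over all genes. On the TPM scale, the mean summed level of the 30 genes was 1038 TPM without and 1228 TPM with Treg uptake under IFN-γ, with overlapping libraries, and 152 and 336 TPM under IL-10. These sums are on TPM without the scaling used in the tests. The SD was 258 TPM without and 263 TPM with Treg uptake under IFN-γ (n = 4). Whether the amount of TPM gained differed between the cytokines was not tested. A variance weight per group in a model of all 28 libraries left 0 calls, and that model without weights 4. For Tconv-phagocytic against non-phagocytic macrophages 0 genes were called by limma (1.68% of all genes), with 10 at an unadjusted p under 0.05, and for Treg- against Tconv-phagocytic macrophages 0 were called (13.6% of all genes), with 5 at an unadjusted p under 0.05. The count was 1 or 2 without IFN-γ non-phagocytic library 3 or 4 in the first case, and in the second 2 without Ax647-1 of either Treg-phagocytic group and 1 without IFN-γ Treg-phagocytic Ax647-2 or IL-10 Tconv-phagocytic BV421-2. The contrasts within a cytokine share their non-phagocytic libraries.

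Other T cell genes, from a second list of 25 of which 20 passed the filter, moved in the same comparisons. Between IFN-γ and IL-10 without uptake 17 of the 20 were higher and 1 lower, with a median of 1.84. S1pr1, a receptor that guides T cells out of lymphoid tissue and is found on many cell types, was the gene that fell (from 37.9 ± 0.57 to 24.8 ± 4.36 TPM, SD, n = 4), by a log2 difference of -0.31 with a limma adjusted p of 0.0418. After Treg uptake under IL-10, 12 of the 20 were higher and 0 lower, among them Gimap3, a GTPase of lymphocytes (log2 1.24, limma adjusted p 0.00025). After Tconv uptake under IL-10 it was 6 of 20, and under IFN-γ 0 of 20 in each uptake comparison. The CD8 chains and the TCR delta constant region were close to 0: the highest group mean was 0.385 TPM for Cd8a, 1.02 TPM for Cd8b1 and 0.18 TPM for Trdc.

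Variable segments of the TCR, which T cells join to make their receptor genes, were found too. The 35 annotated beta segments summed to 14.4 ± 8.28 TPM in M0, 147 ± 70.0 TPM in non-phagocytic IFN-γ and 20.3 ± 4.06 TPM in non-phagocytic IL-10 libraries (SD, n = 4). Under IL-10 they reached 27.2 ± 4.19 TPM after Tconv and 47.6 ± 4.53 TPM after Treg uptake (SD, n = 4), and between 16 and 20 segments were above 0 in each of these 8 phagocytic libraries. Trbv13-2 had the highest group mean of them, 26.1 TPM in non-phagocytic IFN-γ libraries. The 128 alpha segments summed to 15.0 ± 3.16 TPM in M0, 85.5 ± 13.4 TPM in non-phagocytic IFN-γ and 40.0 ± 8.11 TPM in non-phagocytic IL-10 libraries, and under IL-10 to 42.2 ± 10.1 TPM after Tconv and 47.8 ± 1.78 TPM after Treg uptake (SD, n = 4). Libraries of these 3 IL-10 groups overlapped. Trav13-4-dv7 was at 20.7, 18.5 and 15.0 TPM as means of the IL-10 groups (non-phagocytic, Tconv, Treg) and at 5.99, 1.14 and 2.69 TPM in those of IFN-γ. Trav14d-1 and Trav14n-1, near copies, had identical values and were highest, at 93.5 TPM, in IFN-γ Treg-phagocytic Ax647-2.

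Genes of regulatory T cells were looked at beside the T lineage genes. Foxp3, the transcription factor that defines regulatory T cells, was at 14.9, 13.3, 19.97 and 10.95 TPM in non-phagocytic IFN-γ libraries, at 17.6, 10.1, 15.3 and 12.8 TPM after Tconv uptake and at 13.4, 10.4, 14.3 and 11.5 TPM after Treg uptake. The 3 groups overlapped. Under IL-10 it was at 1.85, 3.61, 4.92 and 2.34 TPM without uptake, 2.97, 3.66, 3.43 and 2.86 TPM after Tconv uptake and 4.21, 5.78, 6.34 and 5.27 TPM after Treg uptake. The differences of Treg uptake from non-phagocytic (0.71, limma adjusted p 0.0801) and from Tconv-phagocytic libraries (0.58, limma adjusted p 0.0626) were not called, although every Treg-phagocytic library lay above every Tconv-phagocytic one. As a share of the summed level of the 30 genes, Foxp3 was 1.03% ± 0.14 after Treg uptake, 1.18% ± 0.25 after Tconv uptake and 1.43% ± 0.24 without uptake under IFN-γ (SD, n = 4). The IFN-γ Treg-phagocytic libraries (0.858% to 1.18%) lay below the non-phagocytic ones (1.24% to 1.77%), and the Tconv-phagocytic ones (0.993% to 1.52%) overlapped both. Under IL-10 the share was 1.60% ± 0.19 after Treg uptake, 1.43% ± 0.11 after Tconv uptake and 2.16% ± 1.09 without uptake (SD, n = 4), and these IL-10 groups overlapped. Of 10 genes listed for regulatory T cells, 9 (Capg among them) were higher under IFN-γ than IL-10 without uptake. With Treg uptake under IL-10, 4 rose (Ctla4, Il2ra, Tnfrsf4 and Tnfrsf18). The 10 genes summed to 1275 TPM in M0 and 871 TPM in non-phagocytic IL-10 libraries as group means. The 30 T lineage genes summed to 133.5 and 152 TPM there, so the list cannot be read as RNA of regulatory T cells alone. Against Tconv uptake under IL-10, Tnfrsf18 was higher (log2 0.48, limma adjusted p 0.0492) and Lrrc32 lower (log2 -0.68, limma adjusted p 0.0153), and whether these genes moved unlike the T lineage genes was not tested.

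Markers of B cells, erythroid cells and neutrophils were also called higher under IFN-γ than IL-10 without uptake, and B cell markers after Treg and after Tconv uptake under IL-10. Their part in the results was not tested. The 10 B cell markers summed to 108 ± 29.0 TPM in non-phagocytic IFN-γ and 31.7 ± 2.10 TPM in non-phagocytic IL-10 libraries, 37.1 ± 4.90 TPM after Tconv uptake and 67.1 ± 4.12 TPM after Treg uptake under IL-10, and 29.2 ± 7.85 TPM in M0 (SD, n = 4). Ighm, the IgM heavy chain, rose by 1.40 after Treg uptake under IL-10 (limma adjusted p 8.4e-06), where Trac rose by 1.40, and Igkc, the kappa light chain, by 1.34 (limma adjusted p 0.000168). Of the 8 B cell genes tested, 5 were higher under IFN-γ than IL-10 without uptake. Under IL-10, 4 rose with Treg uptake and 2 (Cd79b and Ighm) with Tconv uptake. The 6 erythroid markers summed to 20.2 ± 10.1 TPM in non-phagocytic IFN-γ and 3.47 ± 1.05 TPM in non-phagocytic IL-10 libraries, and to 8.31 ± 3.12 TPM after Treg uptake under IL-10 (SD, n = 4), where 0 of the 3 tested were called by limma. The 8 natural killer and cytotoxic markers summed to at most 5.76 TPM in any library, and the 6 dendritic cell markers to at most 1.81 TPM, at group means of 0.805 to 1.29 TPM. The 6 neutrophil markers summed to 57.1 ± 7.71 TPM in non-phagocytic IFN-γ and 27.7 ± 1.66 TPM in non-phagocytic IL-10 libraries (SD, n = 4), with Ly6g at 0 in both, and stood at 18.4 ± 4.64 TPM after Treg uptake under IL-10 (SD, n = 4), where S100a9 was called lower. Of the 10 macrophage markers, 2 (Mertk and Lyz2) were higher and 8 lower under IFN-γ than IL-10 without uptake, and 4 were higher and 4 lower after Treg uptake under IL-10. The difference of Mertk (log2 0.20, limma adjusted p 0.0321) is on scaled values, and its unscaled level ran the other way, at 21.5 ± 0.79 TPM under IFN-γ and 23 ± 1.07 TPM under IL-10 (SD, n = 4).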

How the data were processed

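Poly(A) RNA of 28 libraries was sequenced from a directional kit. The deposited values are TPM per gene, and the submitters' processing notes name STAR, RSEM and mm10 without versions. Each file holds 55487 gene IDs, and a symbol was found for 55141 of them (346 had none). No 2 of the 378 library pairs were identical. The 32 members and all other lists were chosen with earlier results of these data known. Genes at 1 TPM or more in at least 4 libraries (13631) were tested with limma 3.58.1 in R 4.3.3 on log2(TPM / scaling factor + 1), with a mean-variance trend, only the compared groups in each fit and Benjamini-Hochberg adjustment over all genes tested. Scaling factors were trimmed means of log2 ratios (30% of ratios and 5% of levels trimmed). The script was tested on simulated data with the spread of the groups, in which 200 genes were changed by 1 log2 unit. For Treg-phagocytic against non-phagocytic macrophages it called 93 of the 200 under IFN-γ and 176 under IL-10. It also called 13 and 16 unchanged genes. Counts of called genes under the 2 cytokines therefore come from tests of unlike sensitivity. Named with a test were the called members, up to 12 by adjusted p. Values of single libraries were given for Trac, Cd3e, Cd4, Lck, Ptprcap, Ms4a4b and the 2 members with the highest level, though not in every group. Members at the ends of a range or just outside the calls were chosen after their values were seen. Alternatives changed the model, scaling, pseudocount, filter, block or libraries. Gene positions follow GENCODE on GRCm38, the assembly that mm10 names. Promoters for 12 members were not used here.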

Additional observations from a re-analysis of the deposited data

Results flagged for a closer look

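In groups of 4, a library was marked where its gap to the nearest other library exceeded the 95% limit of Dixon's test, and 12 of 231 gene and group combinations (33 quantities in 7 groups) were marked, where chance marks about 1 in 20. In M0 library 1, Cd3d (5.65 TPM) and Trac (13.99 TPM) stood above the rest. In non-phagocytic IFN-γ library 3, Lef1 (7.95 TPM), Ms4a4b (98.54 TPM) and Ubash3a (17.75 TPM) did. Themis stood low in IFN-γ Tconv-phagocytic BV421-2 (1.5 TPM). Under IL-10, Cd3d stood high in non-phagocytic library 1 (8.05 TPM) and Lef1 in library 4 (1.11 TPM). In IL-10 Treg-phagocytic libraries, Tcf7 stood high in BV421-1 (10.32 TPM), Ms4a4b in BV421-2 (17.62 TPM) and Themis in Ax647-2 (1.02 TPM). The summed level of the 30 genes without Il7r and Cd28 stood low in Ax647-1 of that group (297.3 TPM).

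The difference between the sorted Treg-phagocytic and non-phagocytic macrophages was unlike under IFN-γ and IL-10 for 7 genes. This came from the test of the difference itself (limma, adjusted p under 0.05). Of all genes tested, 9.47% were called in either direction. Of the 7 calls, 0 held under every alternative, and all were lost with group variance weights. The log2 differences, IFN-γ minus IL-10, were -1.069 for Cd3g, -0.829 for Ltb, -0.986 for Cd5, -0.954 for Ptprcap, -1.025 for Trbc1, -1.174 for Trbc2 and -1.176 for Trac.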

How the results depend on the processing

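Counts are of called genes among the 32, by limma. In a model of all 28 libraries, IFN-γ Treg against non-phagocytic gave 7 (in place of 1), IL-10 Tconv against non-phagocytic 3 (12), IL-10 Treg against Tconv 1 (4), the cytokine difference of Treg against non-phagocytic 4 (7) and that of Treg against Tconv 1 (0). With group variance weights, non-phagocytic IL-10 against M0 gave 4 (2) and the cytokine difference of Treg against non-phagocytic 0 (7). Without scaling, IFN-γ Treg against non-phagocytic gave 0 (1), IFN-γ Treg against Tconv 0 (3) and the cytokine difference of Treg against Tconv 2 (0). Il7r then reversed to -0.009 between the cytokines and Cd28, at -0.066, between IFN-γ and M0. Without a filter, IFN-γ Treg against Tconv gave 1 (3), IL-10 Tconv against non-phagocytic 7 (12) and IL-10 Treg against Tconv 2 (4). A filter of 5 TPM gave 1 (0) for the cytokine difference of Treg against Tconv, and a pseudocount of 0.1 gave 1 (0) for that of Tconv against non-phagocytic. The cause of these moves was not tested.

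Same-numbered libraries did not deviate together: over 24 pairs of same-numbered libraries, from 6 pairs of groups, the correlation was -0.067 to 0.082. A replicate block by file number gave 0 (1) for IFN-γ Treg against non-phagocytic, 0 (3) for IFN-γ Treg against Tconv, 7 (12) for IL-10 Tconv against non-phagocytic, 23 (28) for IL-10 Treg against non-phagocytic and 1 (4) for IL-10 Treg against Tconv. A replicate block by dye and number gave 0 (3) and 3 (4) for Treg against Tconv under IFN-γ and IL-10.

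Leaving out 1 library gave 0 to 2 called genes for IFN-γ Treg against non-phagocytic, 0 for IFN-γ Tconv, 0 to 4 for IFN-γ Treg against Tconv, 21 to 29 for IL-10 Treg and 7 to 14 for IL-10 Tconv against non-phagocytic, 0 to 6 for IL-10 Treg against Tconv, 32 for IFN-γ against IL-10, 31 to 32 for IFN-γ against M0 and 2 to 11 for IL-10 against M0. For the cytokine differences it gave 5 to 10 (Treg against non-phagocytic), 0 to 2 (Tconv against non-phagocytic) and 0 to 2 (Treg against Tconv).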
